A study of Mus musculus with 18 samples.

Results

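The sustained induced genes are 115 genes, of 25897 in the count table, whose newly made RNA was at least 4-fold above its starting level both 2 h and 8 h after ERK signalling was switched on in mouse embryonic stem cells that had the Mediator subunit Med24. They were chosen from the 9 rescued libraries alone. Counts were scaled by the column sum to CPM, the usual per-library unit of read counts, 0.2 was added to each group mean, and a gene was taken when its 8 h mean reached 5 CPM and its 2 h and 8 h means were each at least 4 times the 0 h mean. These thresholds were met by 130 genes, and 15 of them were left out by name because their symbols begin with Egr, Fos, Jun, Dusp, Spry, Etv, Phlda, Col or Itg. The rise in rescued cells is therefore a property of the choice and not a result. The knockout libraries played no part in it, so the response of the members in knockout cells was tested.

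ERK is the last kinase of the cascade that runs from RAS through RAF and MEK, and it passes growth factor signals to the nucleus. Its target genes are often divided into immediate early genes, which need no new protein to be switched on and soon fall back, and genes that stay on while the signal lasts. In mouse embryonic stem cells ERK activity is known for moving cells away from the naive state. Mediator is the large complex that carries information from transcription factors at enhancers to RNA polymerase II, and Med24 is a subunit of its tail module.

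All cells were of the E14tg2a line (129SV background), had their own Med24 knocked out, and carried a tetracycline-regulated cDNA for FLAG-Med24 together with a cRAF-ErT2-T2A-RTTA cassette, whose RAF kinase is activated by 4-hydroxytamoxifen (4OHT). Rescued cells (labelled WT) were passaged with 500 nM doxycycline, which drives the cDNA, and knockout cells (labelled KO) without it. All cells grew in serum with LIF and 2 µM Chir99021, a GSK3 inhibitor, and then spent 24 h in serum and LIF with 250 nM PD173074, an FGF receptor inhibitor. They then received no 4OHT (0 h) or 250 nM 4OHT for 2 h or 8 h, and 5 mM ethynyl uridine for the last 15 min to tag new RNA, which was captured and sequenced. Each of the 6 groups held 3 libraries, from clones A, B and C, so the tests measure the spread between clones labelled alike. Every rescued library and no knockout library had doxycycline, so effects of doxycycline and of Med24 cannot be told apart. No spike-in is named in the labels, and levels are therefore relative to the other genes of the library.

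Med24 itself stood at 515 to 602 CPM in rescued and 35.5 to 41.7 CPM in knockout libraries at 0 h, and the groups did not overlap at any time. Its level in rescued cells was not constant, with means of 548 CPM at 0 h, 1635 CPM at 2 h and 404 CPM at 8 h. Knockout means were 38.9, 46.5 and 39.3 CPM. The part of this change in the results was not tested. Library totals ran from 6691177 to 14541145 counts. At these totals 3 counts, the upper limit that a count of 0 allows, correspond to 0.206 to 0.448 CPM of the column sum. The CPM printed below are scaled further between libraries (TMM), so this level shifts with the factor of each library. The stem cell markers Pou5f1 and Sox2 were read in every group, at means of 174 to 332 CPM and 199 to 347 CPM. All 12 stem cell markers summed to 3220 to 3290 CPM at 0 h, 1940 to 1980 at 2 h and 2340 to 2410 at 8 h in rescued libraries. In knockout libraries they summed to 3110 to 3160, 2250 to 2510 and 2540 to 3010 CPM. Mean Nanog fell from 330 CPM at 0 h to 19.8 CPM at 8 h in rescued and from 358 to 70.6 CPM in knockout cells. Pou5f1 rose from 174 to 282 CPM and from 192 to 332 CPM. Of 11 fibroblast markers Lum was at 0 in all libraries, and the summed level of the list went from 1.53 to 2.52 CPM at 0 h to 22.4 to 27.8 CPM at 2 h in rescued cells and from 1.41 to 2.53 CPM to 23.7 to 27.4 CPM in knockout cells, most of it from Twist1 (means of 16.9 and 18 CPM at 2 h) and Col1a1 (6.99 and 6.93 CPM). Of 9 neural markers Tubb3, Neurod1 and Neurog2 were at 0 in all libraries, while Map2, Pax6 and Sox1 were read, and the list summed to 21.2 to 39.1 CPM in rescued and 14.8 to 25.1 CPM in knockout libraries. Keratinocyte markers summed to 8.7 to 15.3 CPM over all libraries, most of it from Krt10. The summed level of 10 primitive endoderm markers was higher in knockout (432 to 456 CPM) than in rescued libraries (318 to 345 CPM) at 0 h. The part of these markers in the results was not tested. In 3 knockout libraries, clone A at 2 h and clones B and C at 8 h, 13 abundant genes took 34.2%, 36.4% and 43.9% of the counts, against 17.7% to 24.0% in the other libraries. None of the 13 genes is a member. Values without these libraries are given below, and they leave clone A as the only knockout library at 8 h, so that its spread is assumed to be that of the other groups.

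The members rose in knockout cells too, nearly all of them at both times, but to lower levels than in rescued cells. At 2 h 113 of the 115 members were higher than at 0 h in knockout cells and 0 were lower (edgeR quasi-likelihood test, Benjamini-Hochberg adjusted p under 0.05 over 14128 genes), where 31.5% of all genes tested were called higher and 35.2% lower. At 8 h 114 members were higher and 0 lower, against 28.2% and 29.6% of all genes. No member was lower at an unadjusted p under 0.05 or by DESeq2 at either time. The median log2 fold change of the members was 2.24 at 2 h (4.71-fold) and 2.55 at 8 h (5.87-fold), and over all genes it was -0.05 and -0.02. In rescued cells, which chose the members, the medians were 3.25 (9.49-fold) and 3.29 (9.78-fold). Without the 3 libraries with a high share of abundant genes, 112 members were called higher at 2 h and, with 1 library left in the 8 h group, 114 at 8 h. All 115 members passed the filter on low counts, as the rule's level at 8 h in rescued cells made sure.

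**Figure D1:**
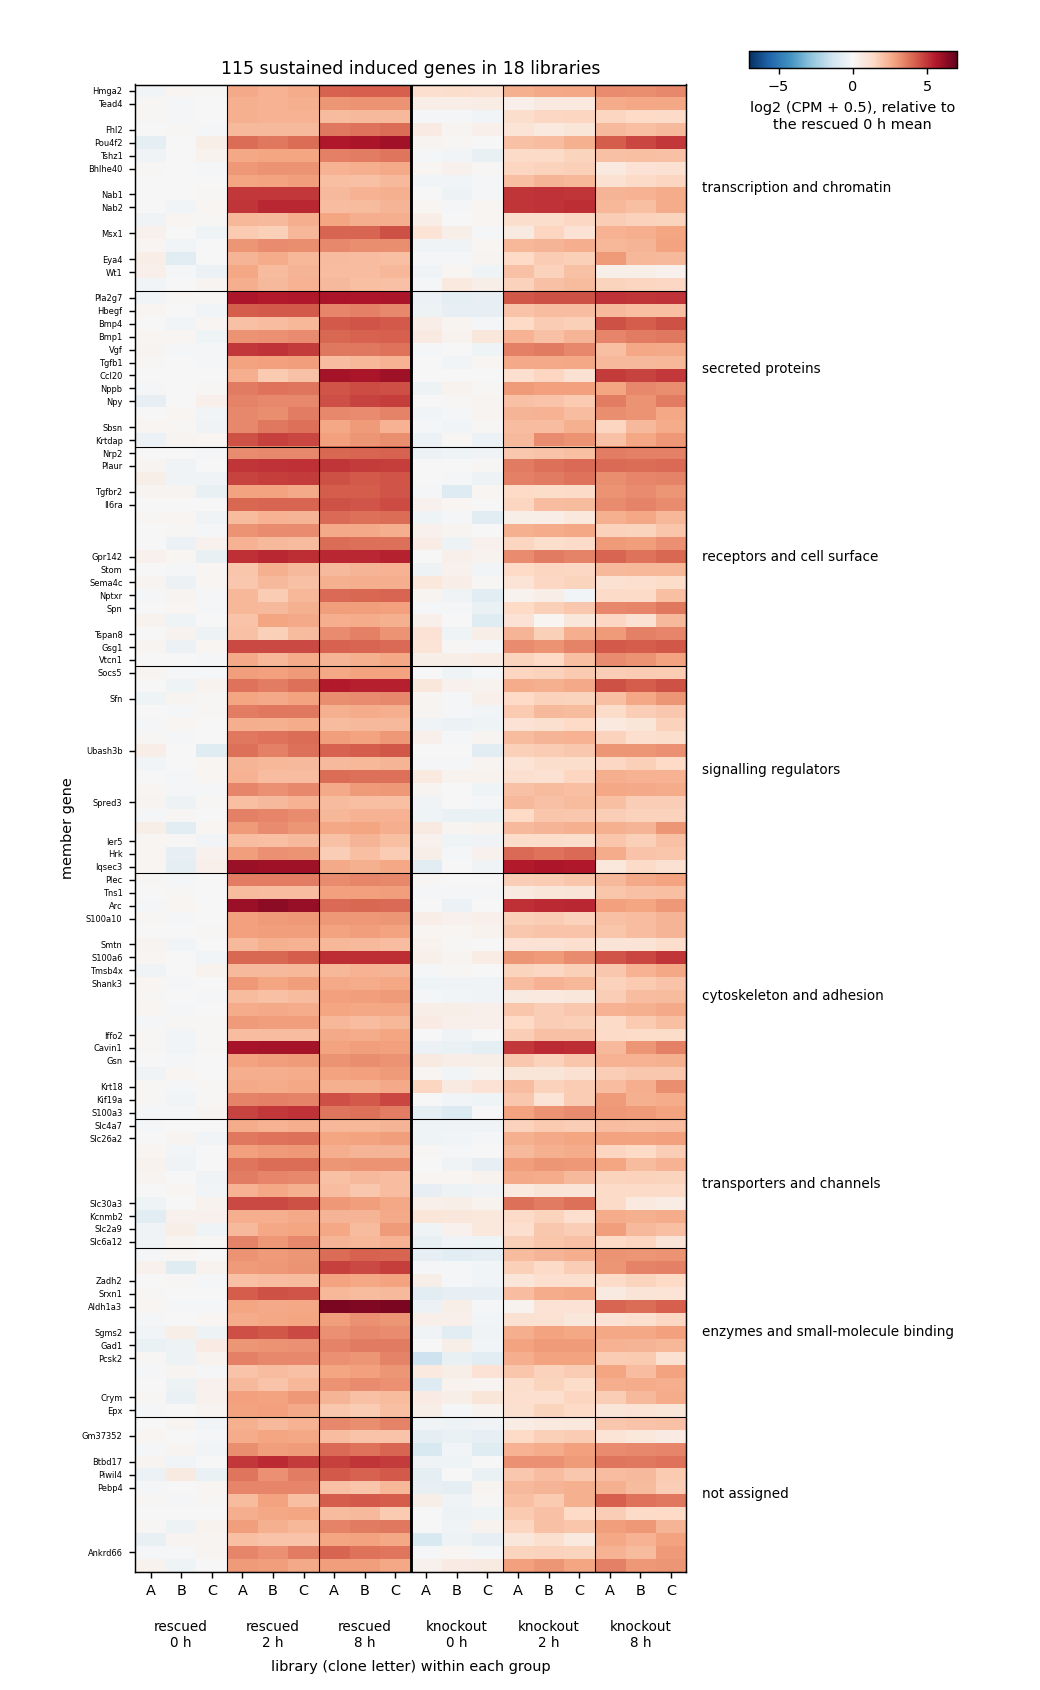
Heat map of the 115 members (rows, grouped by role, with the genes named in the text labelled) in the 18 libraries (columns), coloured by log2 of CPM plus 0.5 relative to the rescued 0 h mean of the gene. Knockout columns at 2 h and 8 h are warm in most rows but paler than the rescued columns, while Nab1, Nab2 and Hrk are as dark in the knockout columns.

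The members took up 0.12% to 0.13% of the counts in rescued libraries at 0 h and 0.128% to 0.134% in knockout libraries. At 2 h their share was 1.23% to 1.30% in rescued and 0.467% to 0.631% in knockout libraries. At 8 h it was 1.18% to 1.21% and 0.519% to 0.694%. No library of one genotype reached the other's range at 2 h or 8 h. Since the rescued libraries chose the members, a gene whose rescued values were high by chance was favoured, and the differences between genotypes below are descriptions without a test.

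To set the 2 responses side by side, the rise above 0 h in knockout cells was expressed as a percentage of the rise in rescued cells, on mean CPM. The median member kept 37.0% at 2 h (quartiles 27.1% and 52.5%) and 49.7% at 8 h (37.6% and 74.6%). The range was wide, from 1.65% to 180% at 2 h and from 9.15% to 160% at 8 h. Members that kept under 50% numbered 83 at 2 h and 58 at 8 h, and 3 members at 2 h and 12 at 8 h kept over 100%. A larger share was kept at 8 h than at 2 h by 88 of the 115 members. At 0 h, before 4OHT, the median log2 difference of knockout from rescued cells was -0.04, with 19 members wholly below and 19 wholly above the rescued libraries (17.1% and 15.9% of all genes). It was -1.13 at 2 h, where 107 members lay below and 2 above (19.2% and 18.6% of all genes), and -0.86 at 8 h, where 89 lay below and 5 above (22.1% and 18.1%).

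**Figure D2:**
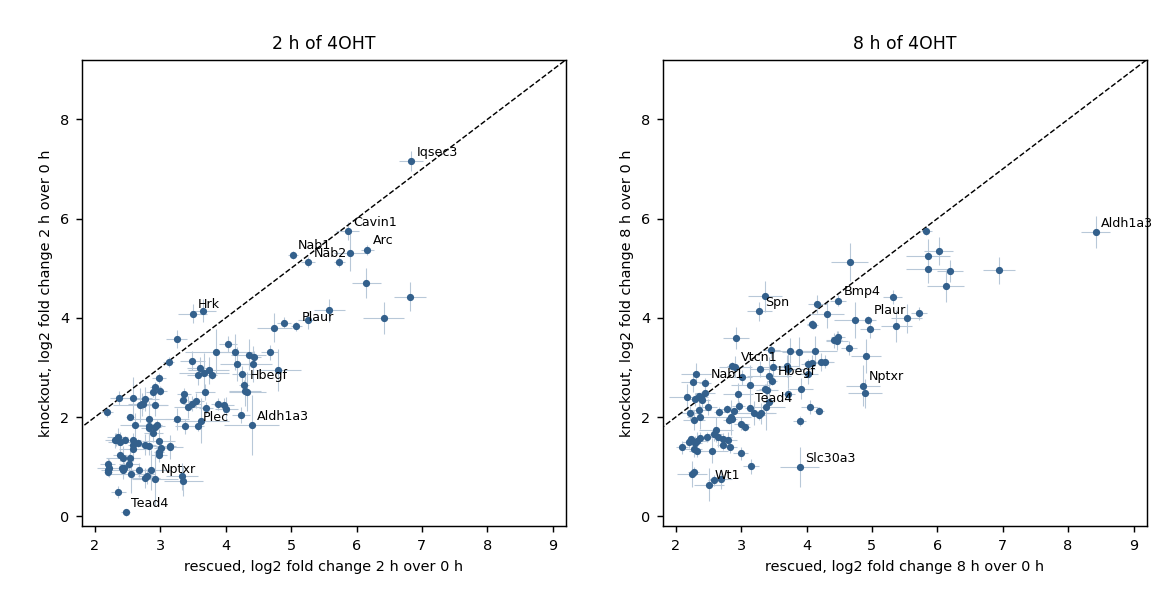
Log2 fold change over 0 h in knockout (vertical) against rescued cells (horizontal) at 2 h and 8 h of 4OHT for 112 members, with bars of 1 SE. Most points lie below the dashed line of equal change. Ccl20, Ankrd66 and Krtdap, which had 0 to 2 counts over a 0 h group, are not drawn.

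Among the 16 members that act in transcription or chromatin, 15 were higher in knockout cells at 2 h and 15 at 8 h, with median log2 fold changes of 1.8 and 2.16. Tead4, a DNA-binding partner of the YAP and TAZ coactivators that is known for specifying trophectoderm, stood apart at 2 h. In knockout cells clones A, B and C, in this order here and below, held 77.4, 77.2 and 79.5 CPM at 0 h, 70.2, 86.7 and 89.8 CPM at 2 h, and 339, 368 and 364 CPM at 8 h. At the same times rescued clones held 58.2, 52.9 and 56.4 CPM, then 315, 300 and 313 CPM, then 474, 506 and 494 CPM. In knockout cells the 0 h and 2 h libraries overlapped, and all 8 h libraries were above both. The log2 fold change in knockout cells was 0.08 ± 0.0695 (SE) at 2 h (adjusted p = 0.288, edgeR) and 2.19 ± 0.0651 at 8 h (adjusted p = 1.33e-22). At 2 h Tead4 was called higher without clone A of that group (0.18, edgeR adjusted p = 0.0165) and without the 3 libraries with a high abundant share (0.20, adjusted p = 0.00411).

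Hmga2, an architectural chromatin protein, was already above the rescued level before 4OHT. Its 0 h values were 64.5, 64.9 and 60.2 CPM in knockout and 23.9, 30.4 and 29.2 CPM in rescued clones. At 2 h the genotypes overlapped, at 157, 176 and 183 CPM in knockout and 180, 153 and 168 CPM in rescued clones. At 8 h knockout clones were at 278, 266 and 288 CPM and rescued clones at 502, 506 and 515 CPM. The order of the genotypes thus turned between 0 h and 8 h, and the knockout rise was 1.45 ± 0.0695 at 2 h and 2.13 ± 0.0689 at 8 h on the log2 scale (edgeR adjusted p = 1.3e-17 and 8.9e-22).

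Bhlhe40, a basic helix-loop-helix repressor linked to the circadian clock, kept 24.6% of the rescued rise at 2 h and 16% at 8 h. It was at 14.9, 16.9 and 14.1 CPM in knockout clones at 0 h, 38.3, 41.5 and 43.6 CPM at 2 h and 22.1, 27.5 and 28.5 CPM at 8 h. Rescued clones held 114, 121 and 120 CPM at 2 h and 74.1, 81.7 and 85.4 CPM at 8 h, far above. The knockout log2 fold change at 8 h was 0.72 ± 0.107 (edgeR adjusted p = 9.79e-07), one of the smallest among the members. Wt1, a zinc finger transcription factor, rose in knockout cells at 2 h from 1.26, 1.82 and 1.22 CPM to 8.40, 6.02 and 8.22 CPM. At 8 h it was back at 2.32, 2.33 and 2.10 CPM, against 8.89, 8.86 and 10.3 CPM in rescued clones. It was the only member not called higher at 8 h (log2 fold change 0.64 ± 0.325, edgeR adjusted p = 0.0934), and its fall from 2 h to 8 h passed the test (-1.72 ± 0.236, adjusted p = 2.51e-07).

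In CPM, Pou4f2, a POU-domain factor, Msx1, a homeobox factor, and Fhl2, a LIM-only cofactor, rose mainly between 2 h and 8 h. On the log2 scale the knockout steps of Pou4f2 were similar, 2.53 ± 0.302 to 2 h and 2.41 ± 0.159 from 2 h to 8 h. Pou4f2 was at 1.49, 1.31 and 1.22 CPM in knockout clones at 0 h, 6.57, 7.2 and 9.31 CPM at 2 h and 32.1, 43.8 and 53.0 CPM at 8 h. Rescued clones were higher at both later times, with 25.9, 21.9 and 25.6 CPM and then 84.1, 91 and 101 CPM. Fhl2 was at 9.88, 7.57 and 8.51 CPM in knockout clones at 0 h, 13.3, 10.9 and 12.4 CPM at 2 h and 34, 30.0 and 33.8 CPM at 8 h. Its rise was small at 2 h (0.49 ± 0.125, edgeR adjusted p = 0.00105), was not called under scaling by library size alone (0.20, adjusted p = 0.321), and was 1.92 ± 0.108 at 8 h (adjusted p = 7.75e-16). Msx1 was called at 2 h (0.84 ± 0.373, edgeR adjusted p = 0.0475), but not when clone B or C was left out of the 0 h or the 2 h group (0.53 to 0.91, adjusted p = 0.0617 to 0.29).

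Nab1 and Nab2, corepressors that bind EGR transcription factors, were among the members that rose as far in knockout as in rescued cells. Nab1 was at 8.96, 7.17 and 8.27 CPM in knockout clones at 0 h, 307, 325 and 307 CPM at 2 h and 49.2, 51.4 and 57.9 CPM at 8 h. Rescued clones had 294, 301 and 300 CPM at 2 h and 46.4, 51.6 and 53.1 CPM at 8 h. All knockout libraries were above all rescued ones at 2 h, by a log2 difference of 0.07 ± 0.0511, and the 8 h libraries overlapped. Nab2 was at 306, 314 and 343 CPM in knockout and 309, 366 and 366 CPM in rescued clones at 2 h, which overlapped. The knockout rise at 2 h was 5.27 ± 0.0782 for Nab1 and 5.12 ± 0.102 for Nab2 (edgeR adjusted p = 3.94e-30 and 2.94e-27). Nab2 overlaps Stat6 and Nemp1 on the other strand, and strand counting is not given in the sources used here, so their reads may be shared.

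Promoter sequence was examined for the members with an entry in the RefSeq table (build GRCm38.p6), which held 111 promoters of 80 members and 32851 promoters in all, each from 250 bases before to 50 bases after the start. The letters searched were, on both strands, TGANTCA for AP-1, TGACGTCA for CRE, CCGGAA for ETS, GCGTGGGCG for EGR, GGAATG for TEAD and CACGTG for the E-box, and the CArG box by its name. The AP-1 letters were in 12.6% of member promoters and 7.81% of all, and the EGR letters in 2.70% and 0.612%. The shares were 9.01% and 14.9% for ETS, 13.5% and 14.7% for TEAD, 6.31% and 7.15% for the E-box, 0.901% and 1.79% for CRE, and 2.70% and 1.63% for the CArG box. A match is a run of letters and not a measured site. The 3 members with the EGR letters were Nab1, Tgfb1 and Shank3, which kept between 63.5% and 105% of the rescued rise at 2 h and between 52.1% and 108% at 8 h. The 13 members with the AP-1 letters, Plaur and Srxn1 among them, kept between 25.2% and 53.5% at 2 h and between 18.8% and 154% at 8 h. Their 8 h range takes in that of the 3 members with the EGR letters, and at 2 h the ranges did not overlap. Of the 9 members that kept over 80% at 2 h, however, only Nab1 and Tgfb1 held the EGR letters. Nab2 (92.2%), Spred3 (93.9%), Iffo2 (85.0%) and Gad1 (82.0%), for example, had none. The quartiles of all members at 2 h, 27.1% and 52.5%, were close to the range of the members with the AP-1 letters. The members with the ETS and TEAD letters ranged from 23.7% to 97% and from 23.7% to 180% at 2 h, and no difference between motifs was tested. These sequences, 5′ to 3′ on the strand of the gene, are shown because they hold those letters, which stand in capitals in either orientation. The 29 bases of Nab1 lie at chr1:52500539-52500567 (minus strand), in an exon of a longer annotated transcript, and a second match farther upstream is not shown. The others lie just before the annotated exons, at chr7:25686752-25687001 for Tgfb1, chr15:89499358-89499607 for Shank3, chr7:24462233-24462482 for Plaur and chr2:152105274-152105515 for Srxn1, all on the plus strand.
Nab1: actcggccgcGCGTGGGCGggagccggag
Tgfb1: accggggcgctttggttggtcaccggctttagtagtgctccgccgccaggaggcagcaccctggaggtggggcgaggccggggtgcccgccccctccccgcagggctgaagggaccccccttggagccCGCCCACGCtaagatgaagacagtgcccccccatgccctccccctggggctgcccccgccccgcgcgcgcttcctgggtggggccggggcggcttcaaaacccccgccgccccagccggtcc
Shank3: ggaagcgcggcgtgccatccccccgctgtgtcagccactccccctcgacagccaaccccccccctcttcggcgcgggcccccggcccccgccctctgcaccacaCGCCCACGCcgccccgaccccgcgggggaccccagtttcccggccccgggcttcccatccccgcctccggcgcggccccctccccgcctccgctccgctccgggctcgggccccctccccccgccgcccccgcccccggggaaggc
Plaur: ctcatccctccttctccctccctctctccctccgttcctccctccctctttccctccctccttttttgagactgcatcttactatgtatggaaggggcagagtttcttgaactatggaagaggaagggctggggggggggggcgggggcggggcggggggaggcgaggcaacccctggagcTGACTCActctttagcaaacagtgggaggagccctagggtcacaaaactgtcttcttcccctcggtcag
Srxn1: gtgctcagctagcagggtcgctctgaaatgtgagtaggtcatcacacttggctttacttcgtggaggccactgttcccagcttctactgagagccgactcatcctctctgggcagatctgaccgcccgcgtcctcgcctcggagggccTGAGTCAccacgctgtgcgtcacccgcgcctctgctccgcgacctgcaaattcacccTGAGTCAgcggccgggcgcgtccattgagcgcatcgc

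All 12 members that encode secreted proteins were higher in knockout cells at 2 h and at 8 h, with median log2 fold changes of 3.16 and 4.03. Their median kept share was 40.9% at 2 h and 63.7% at 8 h. Hbegf, a ligand of the EGF receptor, was at 17.1, 14.5 and 14.5 CPM in knockout clones at 0 h, 88.4, 101 and 100 CPM at 2 h and 110, 96.7 and 97.5 CPM at 8 h. Rescued clones held 420, 437 and 437 CPM at 2 h and 244, 259 and 237 CPM at 8 h. The knockout libraries were below all rescued ones at every time, with a log2 difference of -2.16 ± 0.0622 at 2 h. The rise in knockout cells passed the test at both times (2.65 ± 0.0849 and 2.73 ± 0.0856, edgeR adjusted p = 4.28e-22 and 4.37e-22).

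Tgfb1, the ligand TGF-β1, was at 5.97, 5.25 and 6.57 CPM in knockout clones at 0 h, 40, 40.9 and 41.6 CPM at 2 h and 30.5, 31.1 and 31.9 CPM at 8 h. Rescued clones had 44.6, 47.5 and 48.5 CPM at 2 h and 27.9, 32.1 and 34.5 CPM at 8 h. The genotypes were apart at 2 h and overlapped at 8 h, and Tgfb1 kept 85.3% and then 98.9%. Its receptor subunit gene Tgfbr2 kept less, 28.5% and 43.9%. Tgfbr2 went from 5.17, 2.73 and 5.96 CPM in knockout clones to 15.0, 13.9 and 14.5 CPM at 2 h and 51.0, 57.8 and 50.1 CPM at 8 h, while rescued clones reached 41.2, 41.3 and 37.4 CPM and 110, 113 and 124 CPM. Ligand and receptor both rose in knockout cells at 2 h (2.79 ± 0.106 and 1.67 ± 0.177, edgeR adjusted p = 3.77e-20 and 1.27e-09).

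Bmp4, a BMP ligand, reached the same range in both genotypes at 8 h. It was at 5.75, 4.64 and 3.65 CPM in knockout clones at 0 h, 11.4, 14.9 and 14.0 CPM at 2 h and 101, 86.2 and 99.6 CPM at 8 h. Rescued clones had 18.2, 19.9 and 22.6 CPM at 2 h, above all knockout libraries, and 89.9, 94.9 and 90.2 CPM at 8 h, within their range. The knockout rise was 1.53 ± 0.154 at 2 h and 4.35 ± 0.114 at 8 h (edgeR adjusted p = 3.94e-10 and 5.27e-24). Bmp4 overlaps the gene model Gm15217 on the other strand. Bmp1, a protease that processes procollagen and the BMP antagonist chordin, kept 41.2% and 64.6%.

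Ccl20, a chemokine, had 0 counts in all 6 libraries at 0 h. In knockout clones it was at 0.611, 0.945 and 0.548 CPM at 2 h and 14.6, 12.8 and 15.1 CPM at 8 h, and in rescued clones at 27.8, 26.1 and 30.5 CPM at 8 h. Against a floor of 3 counts over the 0 h group, Ccl20 was at least 127-fold higher at 8 h in knockout cells and at least 220-fold higher in rescued cells. Pla2g7, a secreted phospholipase that degrades platelet-activating factor, rose from 4.14, 3.43 and 3.53 CPM to 122, 131 and 134 CPM at 2 h and 204, 191 and 204 CPM at 8 h in knockout clones. Rescued clones had 309, 284 and 300 CPM and 322, 311 and 322 CPM, and all their 8 h libraries were above their 2 h libraries. The log2 step from 2 h to 8 h was 0.10 ± 0.0492 in rescued and 0.63 ± 0.054 in knockout cells for Pla2g7. Of the peptide genes, Vgf kept 34.8% and 38.6%, and Nppb, the natriuretic peptide B gene, kept 53.0% and 35.9%. Npy, which encodes neuropeptide Y, was at 0.230, 0.303 and 0.365 CPM in knockout clones at 0 h, 2.60, 2.48 and 2.19 CPM at 2 h and 8.36, 6.16 and 8.80 CPM at 8 h. It was higher in all 3 rescued clones at both later times, at 7.92, 7.38 and 7.32 CPM and 16.9, 19.6 and 20.8 CPM.

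**Figure D3:**
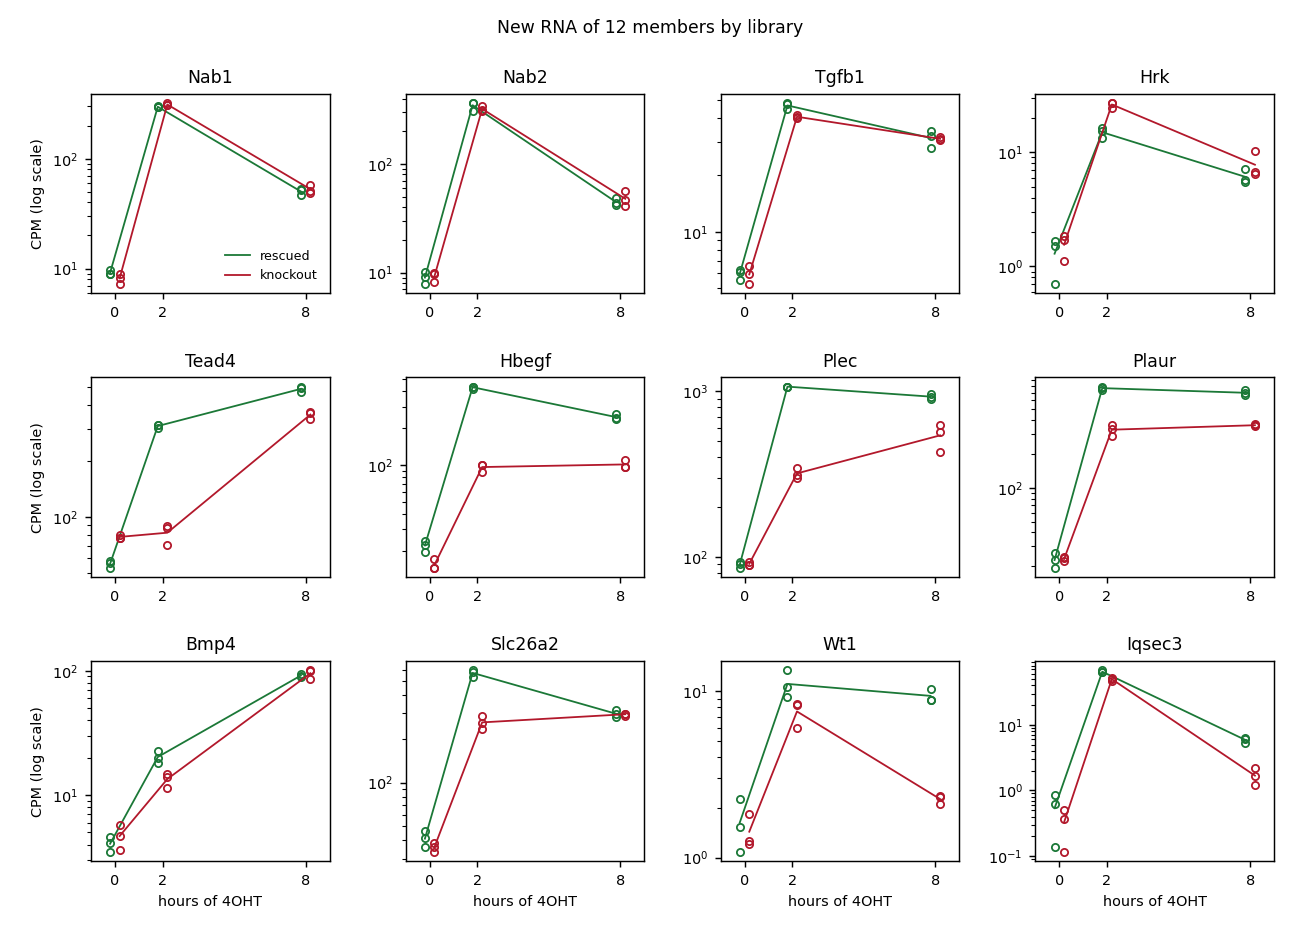
CPM on a log axis for 12 members in the 3 clones of each genotype at 0, 2 and 8 h of 4OHT, with lines through the group means and the genotypes set slightly apart along the time axis. Nab1 and Nab2 run together in both genotypes, the 0 h and 2 h libraries of Tead4 overlap in knockout cells and its 8 h libraries lie above them, and Wt1 and Iqsec3 part between 2 h and 8 h.

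Of the 17 receptors and other cell-surface proteins, 16 were higher in knockout cells at 2 h and 17 at 8 h, with medians of 2.04 and 3.33. Nrp2, a coreceptor for semaphorins and VEGF, was at 42.3, 46.1 and 47.8 CPM in knockout clones at 0 h, 215, 232 and 246 CPM at 2 h and 680, 669 and 663 CPM at 8 h. Rescued clones had 572, 592 and 587 CPM and then 922, 984 and 997 CPM, above every knockout library of the same time. Its knockout rise was 2.35 ± 0.0651 and 3.88 ± 0.0654 (edgeR adjusted p = 1.65e-23 and 8.22e-29). Plaur, the urokinase receptor, was at 23.6, 22.1 and 23.9 CPM in knockout clones at 0 h, 290, 330 and 365 CPM at 2 h and 367, 352 and 361 CPM at 8 h. The knockout clones stayed below the 742, 771 and 795 CPM and the 739, 690 and 670 CPM of rescued clones, and kept 40.9% and 49.7% of the rise. From 2 h to 8 h Plaur did not pass the test in knockout cells (0.13 ± 0.0675, edgeR adjusted p = 0.0996), and it did without clone C at 2 h (0.21, adjusted p = 0.0133).

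Il6ra, the ligand-binding subunit of the interleukin-6 receptor, kept 18.9% at 2 h and 43.8% at 8 h. It was at 4.37, 3.84 and 3.4 CPM in knockout clones at 0 h, 11, 17.6 and 18.3 CPM at 2 h and 39.3, 44.1 and 39.0 CPM at 8 h. Rescued clones reached 64.2, 67.6 and 65.8 CPM and 87.0, 84.1 and 92.5 CPM, without overlap. Nptxr, the neuronal pentraxin receptor, was not called at 2 h in knockout cells (0.76 ± 0.552, edgeR adjusted p = 0.227), where its values of 0.763, 0.945 and 0.438 CPM lay near the level of 3 counts. At 8 h it was at 2.22, 2.16 and 3.98 CPM in knockout and 16, 16.6 and 17.3 CPM in rescued clones, the widest gap in log2 terms at that time (-2.65 ± 0.198) among members named by the rule. Nptxr overlaps Npcd on the same strand.

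A few surface proteins ended above the rescued level. Spn, the sialoglycoprotein CD43, was at 4.73, 5.79 and 7.01 CPM in knockout clones at 2 h, below the 9.68, 9.01 and 10.9 CPM of rescued clones. At 8 h it was at 20.1, 21.0 and 25.4 CPM, above their 14.6, 14.9 and 14.3 CPM. Vtcn1, the inhibitory ligand B7-H4, likewise went from 4.58, 3.90 and 6.68 CPM at 2 h to 16.5, 14.5 and 11.3 CPM at 8 h in knockout clones. Rescued clones held 10.3, 8.13 and 9.88 CPM and then 8.17, 8.98 and 10.4 CPM, so the order of the genotypes turned for Vtcn1 as well. In knockout cells the step from 2 h to 8 h was 1.87 ± 0.139 for Spn and 1.5 ± 0.175 for Vtcn1 (edgeR adjusted p = 7.68e-13 and 1.17e-08). The other members wholly above the rescued libraries at 8 h were Eya4, Gsg1 and 1 predicted gene model.

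All 16 regulators of signalling were higher in knockout cells at both times, with medians of 2.19 and 2.20. Spred3, a member of the Sprouty-related inhibitors of RAS to ERK signalling, had overlapping libraries at 2 h, at 32.1, 27.0 and 30.5 CPM in knockout and 28.4, 31.6 and 35.6 CPM in rescued clones. At 8 h it was at 27.6, 21.8 and 21.4 CPM in knockout clones, below the 30.4, 28.3 and 27.7 CPM of rescued clones. It kept 93.9% and 79.1%, and it overlaps Ggn on the other strand. Hrk, a BH3-only activator of cell death, was above the rescued level at 2 h, at 27.0, 24.4 and 27.2 CPM against 13.3, 16.3 and 15.3 CPM. At 8 h the genotypes overlapped, at 10.2, 6.66 and 6.50 CPM in knockout and 5.49, 7.08 and 5.68 CPM in rescued clones. The knockout rise of Hrk at 2 h was 4.08 ± 0.194 (edgeR adjusted p = 9.36e-18), and its kept share of 180% was the highest of the members.

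Iqsec3, an exchange factor for the small GTPase ARF6 at inhibitory synapses, had the steepest rise at 2 h and the steepest fall from 2 h to 8 h of all members in knockout cells. Iqsec3 was at 0.115, 0.505 and 0.365 CPM in knockout clones at 0 h, 47.2, 51.8 and 50.6 CPM at 2 h and 1.21, 2.16 and 1.68 CPM at 8 h. The 0 h values lay near the level of 3 counts, so the size and rank of its rise are uncertain. Rescued clones had 67.9, 63.1 and 63.3 CPM at 2 h and 6.08, 5.31 and 6.27 CPM at 8 h. It kept 77.2% of the rescued rise at 2 h and 25.3% at 8 h, still above its own 0 h level (2.20 ± 0.455, edgeR adjusted p = 0.000124). The fall from 2 h to 8 h in knockout cells was -4.95 ± 0.163 (edgeR adjusted p = 1.79e-21). Ubash3b, a phosphatase that acts on tyrosine kinases, kept 20.3% and 44.0%, and Socs5, a suppressor of cytokine signalling, 34% and 42.6%.

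All 19 members of the cytoskeleton and adhesion group were higher in knockout cells at both times, with medians of 1.54 and 2.12, and their median kept share went from 28.1% to 52.1%. Plec encodes plectin, which links intermediate filaments to adhesion sites. It was at 93.6, 89.3 and 89.2 CPM in knockout clones at 0 h, 298, 313 and 346 CPM at 2 h and 432, 564 and 627 CPM at 8 h. Rescued clones had 1064, 1067 and 1064 CPM at 2 h and 901, 962 and 918 CPM at 8 h. The knockout libraries were below all rescued ones at both times but climbed between them (0.76 ± 0.0813, edgeR adjusted p = 2.53e-09). Without the 3 libraries with a high abundant share, which leaves clone A alone at 8 h, this step was 0.38 (edgeR adjusted p = 5.22e-06). Tns1, the focal adhesion protein tensin, kept a small share at 2 h, at 86.0, 97.8 and 101 CPM in knockout against 257, 244 and 248 CPM in rescued clones. At 8 h it was at 213, 224 and 235 CPM in knockout and 398, 400 and 410 CPM in rescued clones. S100a10, a partner of annexin A2, likewise stayed below, at 99.1, 106 and 96.7 CPM at 2 h against 231, 244 and 258 CPM.

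Several genes, of the cytoskeleton and of other roles, spread widely across the knockout clones at 8 h, in the order of the abundant share of the library. The TMM factors of these libraries fell in the same order, at 1.08, 0.822 and 0.713. Sfn, a signalling regulator, was at 39.6, 61.6 and 81.1 CPM, while others, such as Nrp2 (680, 669 and 663 CPM), did not spread in this way. Cavin1, a coat protein of caveolae, was at 44.9, 77.7 and 106 CPM in the knockout clones at 8 h, against 64.8, 70.7 and 68.2 CPM in rescued clones. Tmsb4x, the actin-binding thymosin β4, was at 109, 156 and 192 CPM, and Krt18, a keratin of simple epithelia, at 24.7, 32 and 51.6 CPM. The rescued clones lay inside these ranges, at 148, 160 and 153 CPM for Tmsb4x and 30.3, 30.5 and 34.4 CPM for Krt18. Without the 3 libraries, with clone A alone at 8 h and the lowest of the 3 for each gene, the 8 h log2 fold change over 0 h went from 3.59 to 2.92 for Cavin1, from 2.34 to 1.90 for Tmsb4x and from 1.59 to 1.14 for Krt18. The adjusted p of that 1 library against 0 h was 1.3e-24, 1.68e-22 and 1.02e-07 in edgeR, with the spread taken from the other groups. The part of the abundant genes in these values was not tested. Arc, an immediate early gene known from synapses, went from 20, 14.4 and 19.3 CPM to 688, 737 and 790 CPM at 2 h and 146, 138 and 163 CPM at 8 h in knockout clones. Rescued clones held 1257, 1559 and 1399 CPM and 311, 330 and 314 CPM, and the kept share of Arc was 52.0% and 44.0%. Shank3, a postsynaptic scaffold, kept 63.5% and 52.1%.

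All 10 transporters and channels were higher in knockout cells at both times, with medians of 2.52 and 2.25. Slc26a2, a sulfate transporter, was at 33.3, 36.1 and 38.7 CPM in knockout clones at 0 h, 234, 259 and 286 CPM at 2 h and 289, 298 and 299 CPM at 8 h. Rescued clones fell from 536, 578 and 592 CPM at 2 h to 281, 297 and 317 CPM at 8 h, where the genotypes overlapped. Slc4a7, a sodium bicarbonate cotransporter, stayed below the rescued clones, at 287, 336 and 311 CPM at 2 h and 417, 411 and 424 CPM at 8 h against 567, 515 and 546 CPM and 474, 473 and 495 CPM. Slc30a3, a transporter that loads zinc into vesicles, kept 55.6% at 2 h and 9.15% at 8 h. It was at 12.7, 10.9 and 13 CPM in knockout clones at 2 h and 1.81, 0.999 and 0.839 CPM at 8 h, against 7.12, 6.58 and 5.57 CPM in rescued clones at 8 h. Its 8 h level was called higher than at 0 h (0.99 ± 0.399, edgeR adjusted p = 0.0349). That call was lost when any clone was left out at 0 h (0.93 to 1.04, adjusted p = 0.061 to 0.0771) or clone A at 8 h (0.46, adjusted p = 0.511), by DESeq2 (adjusted p = 0.0515), and under scaling by library size alone (0.65, adjusted p = 0.201).

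All 13 enzymes and small-molecule binding proteins were higher in knockout cells at both times, with medians of 1.96 and 2.57, and the group had the lowest median kept share at 8 h, 36.6%. Aldh1a3, which makes retinoic acid, was at 0, 0.404 and 0.122 CPM in knockout clones at 0 h, 0.305, 0.827 and 0.876 CPM at 2 h and 10.9, 9.49 and 11.5 CPM at 8 h. Rescued clones had 4.02, 3.75 and 3.88 CPM at 2 h and 65.0, 59.8 and 65.2 CPM at 8 h, with no overlap at either time. Its 2 h call (1.84 ± 0.607, edgeR adjusted p = 0.00898) was lost without clone A at 0 h (1.31, adjusted p = 0.0733) or clone C at 2 h (1.61, adjusted p = 0.0504). Without clone B at 0 h the values were 3.28 at 2 h and 7.17 at 8 h, against 5.72 ± 0.318 at 8 h with all clones (adjusted p = 6.21e-16).

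Srxn1, sulfiredoxin, which repairs oxidised peroxiredoxins, has a pair of AP-1 matches in the sequence shown above. It was at 9.19, 10.3 and 10.2 CPM in knockout clones at 0 h, 72.2, 95.7 and 105 CPM at 2 h and 24.1, 30.1 and 30.2 CPM at 8 h. Rescued clones held 309, 358 and 344 CPM and 78.6, 75 and 76.0 CPM, and knockout clones were below them at all 3 times. Srxn1 kept 25.2% and 29.9% of the rescued rise, and its fall from 2 h to 8 h passed the test in knockout cells (-1.74 ± 0.103, edgeR adjusted p = 3.67e-15). The 12 members with no assigned role were all higher in knockout cells at both times, with medians of 2.91 and 3.65. Among them Btbd17, named for its BTB domain, was at 7.63, 7.68 and 6.36 CPM at 2 h against 26.8, 32 and 26.0 CPM in rescued clones. Piwil4, a PIWI protein that acts with small RNAs in the germ line, kept 30.5% and 19.7%.

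**Figure D4:**
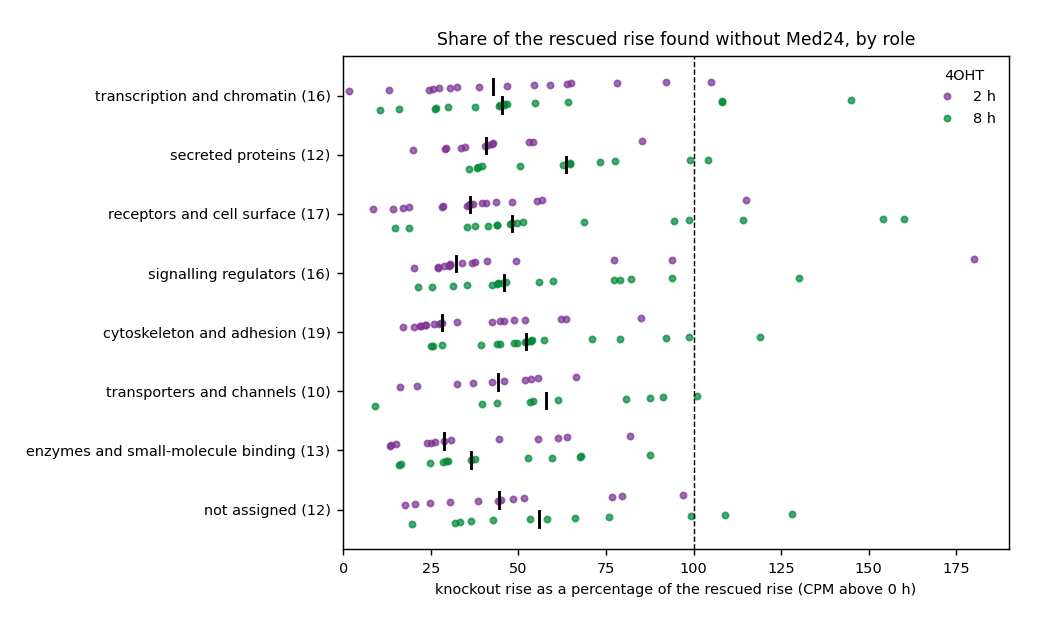
The knockout rise above 0 h as a percentage of the rescued rise (mean CPM) for each member, by role, at 2 h and 8 h of 4OHT, with black ticks at the group medians and a dashed line at 100%. Medians lie between 28.1% and 44.6% at 2 h and between 36.6% and 63.7% at 8 h, and each group spans a wide range.

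Among the weakest responses in knockout cells that still passed the test at 2 h were those of Fhl2, Kcnmb2 (0.71 ± 0.294, edgeR adjusted p = 0.035), Krt18 (0.78 ± 0.204, adjusted p = 0.00131) and Crym (0.81 ± 0.273, adjusted p = 0.0106). Krt18 started higher in knockout clones, at 15.5, 8.18 and 10.7 CPM at 0 h against 5.38, 4.46 and 5.28 CPM in rescued clones. Kcnmb2, a potassium channel subunit, was at 1.49, 1.41 and 1.34 CPM in knockout clones at 0 h, 2.29, 2.72 and 1.97 CPM at 2 h and 6.25, 5.66 and 6.08 CPM at 8 h. Rescued clones held 6.03, 6.01 and 6.55 CPM at 2 h and 5.16, 5.19 and 6.50 CPM at 8 h, so the genotypes overlapped only at 8 h. The 2 h call of Kcnmb2 was lost without any single clone at 0 h (0.67 to 0.74, edgeR adjusted p = 0.055 to 0.0756) and without clone A or B at 2 h (0.57 to 0.72, adjusted p = 0.055 to 0.143). That of Crym was lost without clone B at 0 h (0.68, adjusted p = 0.0547) or clone C at 2 h (0.67, adjusted p = 0.0682). At 8 h the smallest rises that passed were those of Bhlhe40, Sema4c (0.76 ± 0.199, edgeR adjusted p = 0.00168), Epx (0.84 ± 0.262, adjusted p = 0.00693) and Smtn (0.90 ± 0.0915, adjusted p = 7.69e-10). Smtn, the smooth muscle protein smoothelin, was at 44.5, 39.1 and 37.2 CPM in knockout clones at 0 h and 69.5, 72.1 and 86.8 CPM at 8 h, far below the 189, 181 and 168 CPM of rescued clones. Epx, eosinophil peroxidase, lost its 8 h call without clone B at 0 h (0.66, edgeR adjusted p = 0.0521). Under scaling by library size alone the 8 h calls of Sema4c (0.41, edgeR adjusted p = 0.119) and Epx (0.50, adjusted p = 0.154) and the 2 h calls of Kcnmb2 (0.43, adjusted p = 0.276) and Crym (0.52, adjusted p = 0.101) were lost.

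Between 2 h and 8 h more members rose than fell in knockout cells. There 66 (57.4%) were called higher at 8 h than at 2 h and 29 (25.2%) lower, against 29.4% and 27.7% of all genes tested. The share called lower was thus near that of all genes. The median log2 change was 0.50 (0.03 over all genes). Without the 3 libraries with a high abundant share, which leaves 1 library at 8 h, 59 were called higher and 30 lower. In rescued cells the median change was -0.02. The members were therefore split by their rescued ratio of 8 h to 2 h, a split chosen after the values were seen, into 23 that at least doubled, 15 that at least halved and 77 in between. All 23 that doubled in rescued cells were called higher at 8 h in knockout cells, led by Ccl20 (4.30 ± 0.245), Aldh1a3 (3.89 ± 0.253), Bmp4 (2.81 ± 0.0963) and Pou4f2 (2.41 ± 0.159). Of the 15 that halved, 11 were called lower in knockout cells, with Iqsec3, Slc30a3 (-3.16 ± 0.219), Nab2 (-2.76 ± 0.0834), Nab1 (-2.58 ± 0.0616), Arc (-2.31 ± 0.0806) and Cavin1 (-2.15 ± 0.134) the furthest. The other 4, S100a3, Sgms2, Pebp4 and Krtdap, did not pass the test (-0.53 to 0.05, edgeR adjusted p = 0.113 to 0.692). Krtdap, a secreted keratinocyte protein, did pass without clone A at 2 h (-0.76, edgeR adjusted p = 0.0173) or clone C at 8 h (-0.77, adjusted p = 0.0319), and Pebp4 without clone A at 8 h (-0.37, adjusted p = 0.0426). Of the 77 in between, 43 were called higher, 18 lower and 16 neither. In 10 members the 8 h and 2 h libraries did not overlap in either genotype and moved in opposite directions, against 1.1% of all genes tested.

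**Figure D5:**
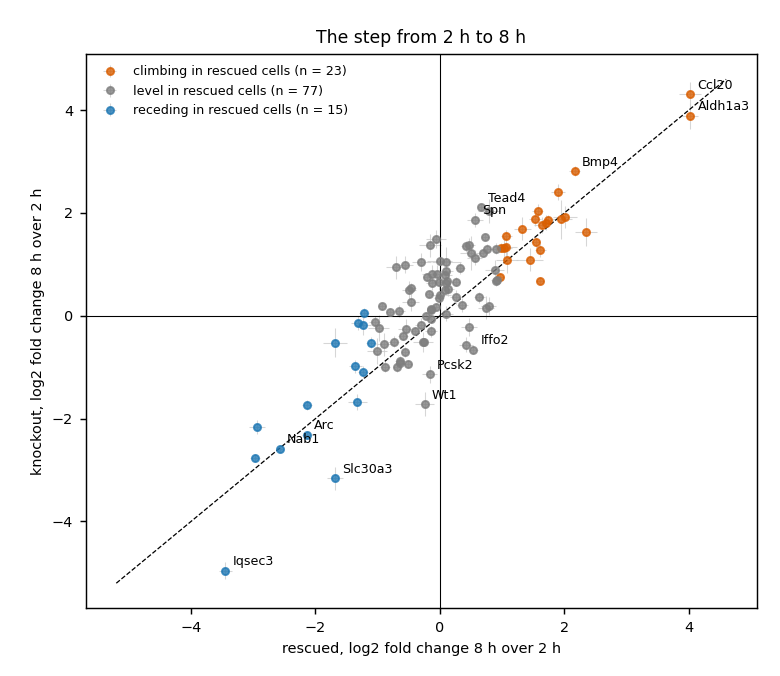
Log2 change from 2 h to 8 h of 4OHT in knockout (vertical) against rescued cells (horizontal) for the 115 members, coloured by the split on the rescued ratio (climbing, at least doubled; receding, at least halved; level, in between), with bars of 1 SE and a dashed line of equal change. The 23 members that doubled in rescued cells all lie above 0 on the vertical axis, and Iqsec3 and Slc30a3 fall furthest in knockout cells.

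The genotypes came closer with time for some members and moved apart for others. At 2 h and at 8 h 86 members lay below all rescued libraries, against 10.3% of all genes tested. Another 21 lay below at 2 h only (8.88% of all genes), among them Slc26a2, Tmsb4x, Bmp4, Cavin1, Krt18, Tgfb1, Spn and Vtcn1. The 8 members that were not below at 2 h included Hmga2, Nab1, Nab2, Spred3, Tspan8 and Hrk. In the opposite direction, 7 members kept over 50% of the rescued rise at 2 h and under 40% at 8 h, namely Iffo2, Gad1, Pcsk2, Nppb, Wt1, Slc30a3 and Iqsec3. Gad1 makes the transmitter GABA, Pcsk2 cleaves prohormones and Iffo2 is an intermediate filament family member. Pcsk2 was at 15.0, 18.3 and 18.4 CPM in knockout clones at 2 h and 8.67, 8.99 and 5.03 CPM at 8 h. Rescued clones had 29.4, 26.5 and 26.8 CPM and 23.9, 21.6 and 28.4 CPM. Before 4OHT Pcsk2 was already lower in knockout clones, at 0.460, 1.31 and 1.09 CPM against 2.25, 1.53 and 2.64 CPM. Its log2 rise at 2 h was 4.14 ± 0.238 in knockout and 3.66 ± 0.192 in rescued cells. These sets were formed after the values were seen.

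Genes of related pathways, members included, were counted from lists drawn up with earlier results of these data in view, and are to be read against the 31.5% of all genes called higher and 35.2% lower at 2 h and the 28.2% and 29.6% at 8 h. Of 28 immediate early genes tested, 23 were higher in knockout cells at 2 h and 2 lower, and 20 higher and 3 lower at 8 h. Only 2 of them, Ier5 and Arc, are members, and 6 met the thresholds but were left out by name. Of 23 ERK feedback genes, such as the Sprouty and dual-specificity phosphatase families, 18 were higher and 3 lower at 2 h and 16 and 4 at 8 h, with Spred3 a member and 7 left out by name. The genes left out by name also rose in knockout cells at 2 h, for example Fos (4.33 ± 0.143), Egr1 (7.31 ± 0.126), Spry4 (4.44 ± 0.0843) and Dusp4 (2.23 ± 0.0696) on the log2 scale. Of 11 neuronal activity genes, 8 were higher and 2 lower at 2 h and 6 and 3 at 8 h, with Vgf, Npy, Iqsec3 and Nptxr as members. Of 11 epidermal genes, 7 were higher and 4 lower at 2 h and 7 and 2 at 8 h, with Krtdap, Sfn and Sbsn as members. The SRF and actin list had 10 of 20 higher and 3 lower at 2 h, and 5 and 6 at 8 h, the last near the shares of all genes. Of 12 trophectoderm genes 3 were higher and 4 lower at 2 h, again near those shares, and 8 and 2 at 8 h. Of 13 formative and primed epiblast genes 6 were higher and 4 lower at 2 h, and 8 and 4 at 8 h. Of 28 growth factor and receptor genes 11 were higher and 9 lower at 2 h, and 12 and 7 at 8 h.

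Some members are neighbours in the genome. On chromosome 11 of GRCm38, Kif19a (114765388 to 114790739, plus strand), Btbd17 (114791217 to 114795945, minus strand) and Gpr142 (114798924 to 114806745, plus strand) lie with gaps of 478 and 2979 bases. Kif19a is a kinesin and Gpr142 a G protein-coupled receptor. In knockout clones at 2 h Kif19a was at 3.36, 1.53 and 3.07 CPM and Gpr142 at 6.72, 8.27 and 7.45 CPM, against 11.3, 11.8 and 11.2 CPM and 24.6, 26.9 and 25.4 CPM in rescued clones. The 3 genes kept 20.3%, 24.9% and 28.1% at 2 h and 25.7%, 42.9% and 37.6% at 8 h. Tshz1, a zinc finger factor, and Zadh2, an oxidoreductase, start 357 bases apart on opposite strands of chromosome 18 and kept 32.5% and 30.7% at 2 h and 30.0% and 28.6% at 8 h. Gsn and Stom (6094 bases), Slc6a12 and Iqsec3 (7158 bases), and S100a3 and S100a6 (10180 bases) are further pairs. Neighbours may share reads where introns or read-through are counted, which the sources used here do not give. The members had a median gene length of 22843.5 bases and the genes tested 25976.5 bases.

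The thresholds cut through a continuous range. For the 2 h ratio the members nearest the limit were Sema4c (4.02), Iffo2 (4.04) and Zadh2 (4.05), and the genes just outside were Hopx (3.93), Clcf1 (3.92) and Sigirr (3.86). For the 8 h ratio Gm37352 (4.01), Hrk (4.03) and Epx (4.19) were just inside and Nkx2-2 (3.90), Anxa2 (3.87) and Iglon5 (3.83) just outside. For the 8 h level Slc6a12 (5.22 CPM), Krtdap (5.39 CPM) and Slc2a9 (5.43 CPM) were just inside and Runx2 (4.94 CPM), Tmem178 (4.82 CPM) and Stac (4.72 CPM) just outside.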

How the data were processed

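New RNA from 18 libraries was analysed, 3 clones in each of 6 groups. The authors deposited raw read counts per gene, as whole numbers. STAR, featureCounts, DESeq and mm10 are named per the submitters' processing notes. Versions, the annotation, and whether strand or introns were counted are not given in these sources. The members and gene lists were chosen with earlier results of these data known.

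The counts were fitted in edgeR 4.0.16 (R 4.3.3) after filterByExpr, which left 14128 genes, with TMM scaling and 1 quasi-likelihood model of 6 group means, and p-values were Benjamini-Hochberg adjusted over all genes tested. Printed CPM are TMM-scaled, and log2 fold changes carry SEs from the fit. DESeq2 1.42.0 and other alternatives are given in the closing section. Library totals of 6691177 to 14541145 counts limit the precision of low genes, and floors cover counting error only.

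Named genes were taken by level, by list membership, by the highest and lowest knockout changes and differences from rescued cells, by failure to be called, and by distance from the thresholds. A few others were chosen after their values were seen: Tgfbr2, Bmp1, Srxn1, Shank3, Socs5, Stat6 and Nemp1 among them. Positions are from GENCODE M21 (GRCm38, the assembly that mm10 denotes). The values of 1 member are not reported here.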

Additional observations from a re-analysis of the deposited data

Results flagged for a closer look

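Between 2 h and 8 h of 4OHT, 10 members changed in opposite directions in knockout and rescued cells, against 1.1% of all genes tested. In both counts the 8 h and 2 h libraries of each genotype did not overlap. The difference between the genotypes was not tested, since the rescued libraries chose the members. In 8 of the 10 members the 8 h mean was above the 2 h mean in knockout cells and below it in rescued cells. The ratio of 8 h to 2 h was 1.70 in knockout and 0.870 in rescued cells for Plec, 1.34 and 0.886 for Slc4a7, and 1.14 and 0.524 for Slc26a2. It was 1.44 and 0.735 for Rerg, a RAS-like GTPase, and 1.99 and 0.807 for Eya4, a transcriptional coactivator with phosphatase activity. It was 1.43 and 0.704 for the export pump Abcc2, 2.00 and 0.674 for Gsg1, and 2.07 and 0.600 for Crym, a thyroid hormone-binding protein. The other 2 went the opposite way, with ratios of 0.634 and 1.45 for Iffo2 and 0.677 and 1.35 for Gad1. The knockout step was called for Slc26a2, Abcc2 and Crym (edgeR adjusted p = 0.0231, 0.0123 and 0.000615). It was not called without the 3 libraries with a high abundant share, which leaves 1 library at 8 h (log2 0.08, 0.41 and 0.42, adjusted p = 0.433, 0.146 and 0.242). Scaling by library size alone also ended the call for Slc26a2 (0.09, adjusted p = 0.599) and Abcc2 (0.43, adjusted p = 0.0971). The groups hold 3 libraries each, too few for the test of single outlying samples that was used.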

How the results depend on the processing

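With thresholds of 3-fold in place of 4-fold the rule took 193 genes, and with 6-fold 60; leaving out each rescued library in turn gave 113 to 125. Scaling by library size alone gave median log2 changes of 1.95 at 2 h and 2.17 at 8 h in knockout cells (all genes -0.33 and -0.38), and differences from rescued cells of -1.22 at 2 h and -1.12 at 8 h (all genes -0.09 and -0.26). It lowered the share of all genes called higher to 12.3% at 2 h and 8.51% at 8 h, and called 45.5% and 49.2% lower. Leaving out 1 library gave medians of 2.15 to 2.29, 2.46 to 2.58 and, from 2 h to 8 h, 0.47 to 0.54, and differences from rescued cells of -1.21 to -1.09 and -0.93 to -0.81. Members called higher then numbered 109 to 112 at 2 h, 112 to 114 at 8 h and 62 to 67 from 2 h to 8 h, with 26 to 30 lower in the last and 0 to 0 lower in the first 2 comparisons; the doubling group gave 23 to 23 higher and the halving group 11 to 12 lower.

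The clone letters recur in all groups, but no label ties a letter to a day or batch, and same-letter libraries had a mean correlation of deviations of 0.0154 (-0.082 to 0.0732). With clone as a replicate block 113, 114 and 65 members were called higher and 29 lower from 2 h to 8 h. Over single members, 4372 of 4485 recomputed values stayed on the same side of the threshold, 96 lost and 15 gained a call, and 2 changed direction, both from 2 h to 8 h without the 3 libraries with a high abundant share (1 library left at 8 h). Anxa7 went from 0.18 to -0.08 (edgeR adjusted p = 0.031 and 0.377), and Lmna from 0.09 to -0.41 (adjusted p = 0.528 and 0.000974), while without clone A at 8 h Lmna was at 0.31 (adjusted p = 0.00411). These fell on 33 of 345 results, 23 of them from 2 h to 8 h. The cause of these changes was not tested. Levels near 3 counts limit Ccl20, Ankrd66, Krtdap, Nptxr, Aldh1a3 and Iqsec3, among others, at 0 h.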
